A study of Mus musculus with 2 samples.

Results

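The 10 genes Fos, Fosb, Jun, Junb, Jund, Atf3, Egr1, Ier2, Klf6 and Dusp1 make up a group of AP-1 and other immediate early genes, taken by symbol from the feature list. All 10 of them were found among the 31058 features. They were followed in every cell class of 2 single-cell RNA-seq libraries of whole kidney, 1 from the CA3 group and 1 from the vehicle group. Both groups were female C57Bl/6 mice aged 9 weeks that had undergone rhabdomyolysis, the breakdown of muscle whose released myoglobin injures the kidney. Their shared genotype was Pax8.rtTA;TetO.Cre;R26.FUCCI2aR, which joins a doxycycline-dependent activator under the Pax8 promoter, active in tubule cells, a Cre recombinase that the activator turns on, and a fluorescent cell cycle reporter. The mice of the CA3 library received CA3, known as an inhibitor of the coactivator YAP1, and those of the vehicle library its solvent. The sources used here do not state the dose, the time of collection, the number of animals per library or whether the inducer was given, and no uninjured kidney was analysed here. With 1 library per group no difference between CA3 and vehicle can be tested, and no p-value is given. Each ratio is between these 2 libraries, and each interval covers the counting of molecules only.

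AP-1 is a dimer of leucine zipper proteins. A Fos family protein must pair with a Jun family protein, whereas Jun proteins can also pair with each other or with ATF proteins, and the dimers bind short palindromes in promoters and enhancers. Immediate early genes are switched on within minutes by kinase signalling, without new protein synthesis, and their RNAs are short-lived. In the kidney they are known as early markers of ischaemic and toxic tubule injury. They are also known to be induced while a tissue is dissociated into cells. Every cell here was dissociated, so RNA made before and during preparation cannot be told apart.

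The promoters of 5 of the genes are shown because the genes are compared with each other below as partners within a family or as genes that vary together. Each line gives 250 bases upstream of the RefSeq start of transcription on GRCm38.p6, read 5′ to 3′ on the gene's strand, and capitals mark TGACG, the first part of the palindrome TGACGTCA that CREB and ATF proteins bind.
Fos promoter, chr12:85473640-85473889, plus strand: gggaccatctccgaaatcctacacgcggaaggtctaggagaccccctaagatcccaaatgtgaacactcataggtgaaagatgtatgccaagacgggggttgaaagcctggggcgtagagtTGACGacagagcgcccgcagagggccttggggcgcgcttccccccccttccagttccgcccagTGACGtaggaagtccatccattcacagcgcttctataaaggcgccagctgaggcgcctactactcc
Fosb promoter, chr7:19310046-19310295, minus strand: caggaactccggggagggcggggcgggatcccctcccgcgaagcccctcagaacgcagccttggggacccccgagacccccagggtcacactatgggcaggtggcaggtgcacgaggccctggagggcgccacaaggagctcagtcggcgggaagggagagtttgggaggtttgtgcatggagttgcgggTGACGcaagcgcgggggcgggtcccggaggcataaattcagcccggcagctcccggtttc
Jun promoter, chr4:95052223-95052472, minus strand: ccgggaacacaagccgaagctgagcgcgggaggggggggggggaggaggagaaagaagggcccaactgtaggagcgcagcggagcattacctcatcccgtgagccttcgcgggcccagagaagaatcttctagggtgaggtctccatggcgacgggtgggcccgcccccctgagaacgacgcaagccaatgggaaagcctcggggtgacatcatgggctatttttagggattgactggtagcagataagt
Junb promoter, chr8:84978749-84978998, minus strand: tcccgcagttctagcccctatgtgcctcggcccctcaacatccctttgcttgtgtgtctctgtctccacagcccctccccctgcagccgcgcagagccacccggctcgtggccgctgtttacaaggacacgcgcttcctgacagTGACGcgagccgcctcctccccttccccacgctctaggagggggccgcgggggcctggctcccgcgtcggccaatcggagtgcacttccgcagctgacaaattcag
Dusp1 promoter, chr17:26508473-26508722, minus strand: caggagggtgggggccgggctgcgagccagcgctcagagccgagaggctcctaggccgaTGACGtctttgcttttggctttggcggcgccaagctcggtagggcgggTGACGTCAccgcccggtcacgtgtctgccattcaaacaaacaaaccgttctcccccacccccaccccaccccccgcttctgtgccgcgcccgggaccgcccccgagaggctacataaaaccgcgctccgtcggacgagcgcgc
Both strands were searched for TGACG, for the full TGACGTCA, which contains it, for the AP-1 palindrome TGACTCA and for the CArG box that serum response factor binds. Of 32851 RefSeq promoter windows of the same length, 17.8% held TGACG, 1.55% TGACGTCA, 4.46% TGACTCA and 1.47% a CArG box. RefSeq entries matched 8 of the 10 genes, all but Egr1 and Ier2. TGACG began 129 and 66 bases upstream in Fos, 60 in Fosb, 106 in Junb, 7 in Atf3 and 191, 143 and 140 in Dusp1. In Dusp1 the last 2 of these overlap and form the full TGACGTCA at 143 bases. No TGACG lay in these windows for Jun, Klf6 and Jund, and no window of the 8 held TGACTCA or a CArG box. The windows of Dusp1 and Atf3 lie inside the GENCODE gene given below and that of Jund upstream of it, since RefSeq and GENCODE place these starts apart. A match is a run of letters and not a measured site.

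On mm10 with GENCODE vM21 the protein-coding genes lie at chr12:85473890-85477273 (Fos, plus strand), chr7:19302696-19310051 (Fosb, minus), chr4:95049034-95052222 (Jun, minus), chr8:84974484-84978718 (Junb, minus), chr8:70698949-70700616 (Jund, plus), chr1:191170296-191218039 (Atf3, minus), chr8:84661331-84662852 (Ier2, minus), chr13:5861482-5870394 (Klf6, plus) and chr17:26505590-26562128 (Dusp1, minus), with Egr1 on chromosome 18. None of the 31-base words in the last 500 bases of their transcripts occurred in a transcript of another gene, for all 10 of them. Jun, Junb, Jund, Atf3 and Dusp1 overlap an annotated gene on the opposite strand, and Dusp1 also 2 gene models on its own strand, with which its reads could have been shared.

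Unique molecular identifiers (UMIs) count each captured RNA molecule once. There were 17013222 UMIs over 1724 barcodes in the CA3 library and 19592239 over 1967 barcodes in the vehicle library, at a median of 7278 and 7307 UMIs per barcode, and the 2 libraries shared 1 barcode. Filters left 1492 CA3 and 1766 vehicle cells. Levels are in CPM, a gene's UMIs per 1000000, leaving out mitochondrially encoded genes, summed over the cells of a class. The 10 genes took 0.560% of those UMIs in CA3 cells and 0.611% in vehicle cells. Cell classes were named from marker lists after clustering without the 10 genes and without the other genes of the pathway lists. The class called endothelial also carried podocyte markers, at 1586 CPM in CA3 and 1404 CPM in vehicle, with 7 of 7 of that list found in each. The mononuclear phagocyte class carried neutrophil markers, at 4979 CPM in CA3 and 269 CPM in vehicle. Its erythroid markers were at 11766 CPM in CA3 and 29.9 CPM in vehicle. B cells carried proximal tubule markers at 5790 CPM in CA3 and 9148 CPM in vehicle, beside B cell markers at 8393 and 2005 CPM. At least 50 cells in each library were needed to compare CA3 with vehicle, which left the endothelial, T or NK, distal nephron and proximal tubule classes. A set of 10 abundant proximal tubule transcripts, summed, reached 8.91% and 11.7% of their proximal tubule level in the T or NK cells of CA3 and vehicle. RNA free in the suspension can therefore add to low values in any class.

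Summed over all cells of a class, the 10 genes were highest in the endothelial class, at 15929 CPM in CA3 and 16809 CPM in vehicle. Mononuclear phagocytes followed with 12557 CPM in CA3 and 11959 CPM in vehicle, then intercalated cells with 8058 and 8760 CPM and T or NK cells with 7734 and 7966 CPM. Distal nephron cells, which join distal convoluted and principal cells, carried 5366 CPM in CA3 and 6416 CPM in vehicle, and proximal tubule cells 4584 and 4738 CPM. These sums rested on few cells in some classes. A single CA3 endothelial cell held 38.4% of that class's UMIs of the 10 genes, and the median endothelial cell, at 7487 CPM in CA3 and 10766 CPM in vehicle, lay below the median mononuclear phagocyte, at 11219 and 11047 CPM. The median intercalated cell, at 1963.5 and 5483 CPM, likewise lay below the median T or NK cell, at 6521 and 7675 CPM, so the order by sums and by median cells differs for both pairs of classes. Thick ascending limb cells, 42 in CA3 and 70 in vehicle, spanned 2913 CPM and 6019 CPM, a range that holds both proximal tubule values and overlaps the distal nephron. B cells, 19 and 11, spanned 9605 CPM in CA3 and 2597 CPM in vehicle and cannot be placed.

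**Figure D1:**
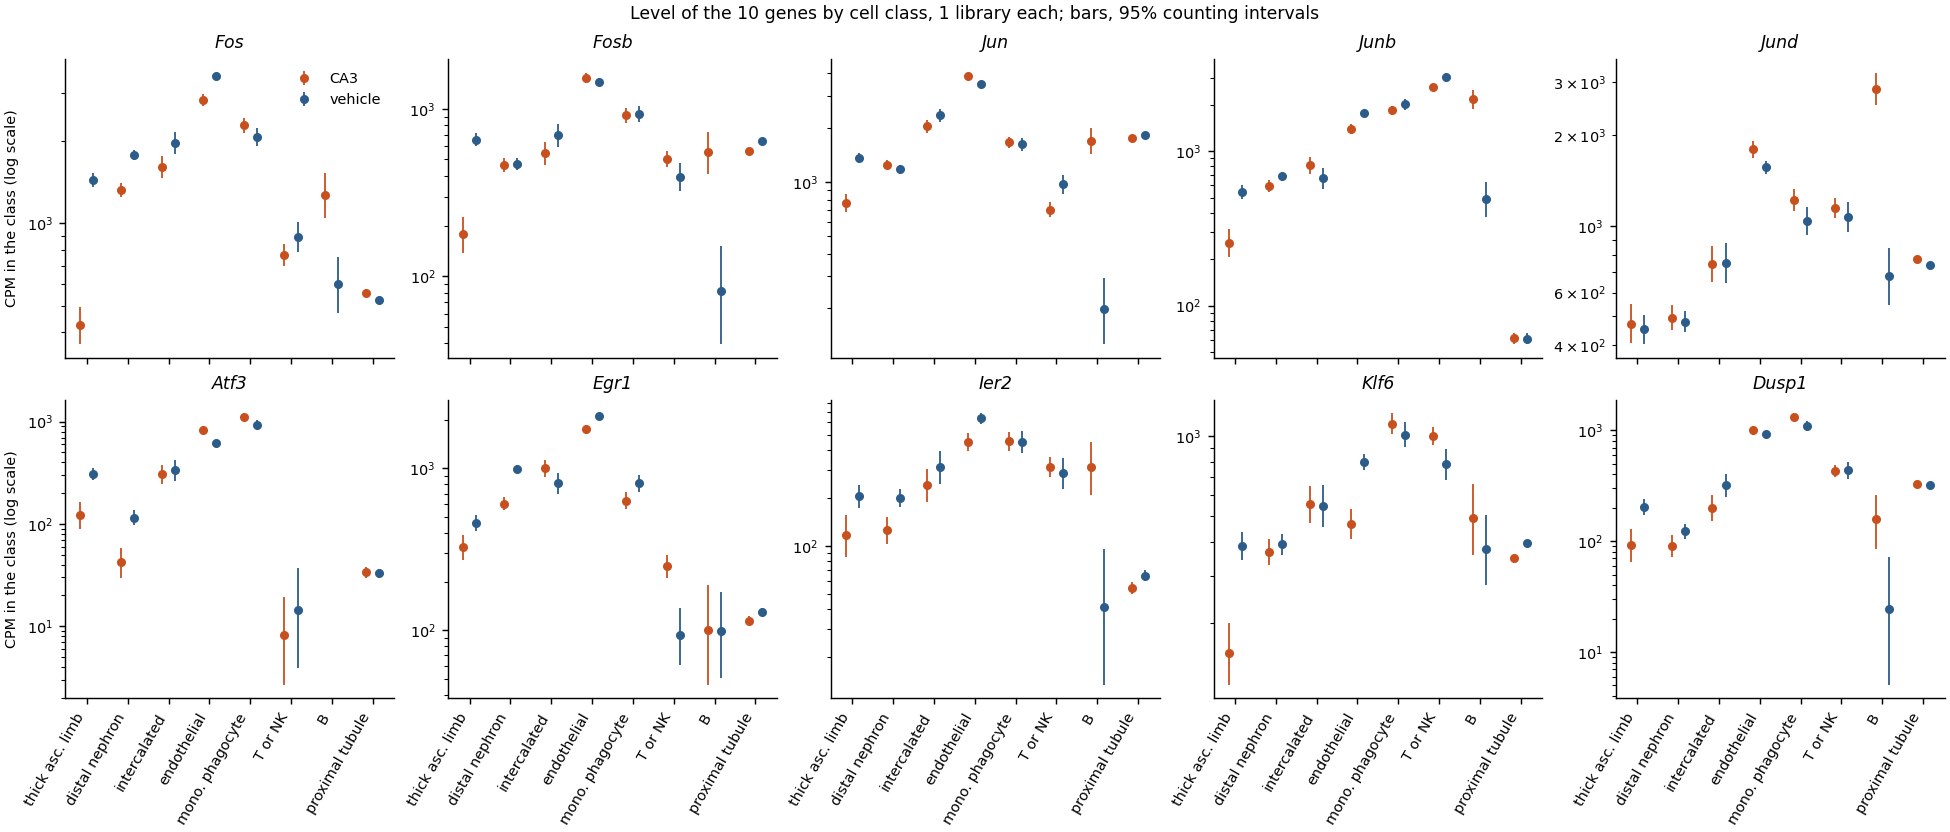
Level of each gene in CPM (vertical log axis) by cell class (horizontal axis), 1 point per library, CA3 left of vehicle, with 95% counting intervals; a class with no UMI has no point. Junb had its highest level in T or NK cells, at 2608 CPM in CA3 and 3015 CPM in vehicle, and its lowest in the proximal tubule, at 61.4 CPM in CA3 and 61.2 CPM in vehicle.

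Among the Fos family, Fos was at 2835 CPM in CA3 and 3448 CPM in vehicle endothelial cells, against 558 and 526 CPM in the proximal tubule. Fosb, whose protein lasts longer than Fos after a stimulus through a truncated splice form, had 1535 CPM in CA3 and 1457 CPM in vehicle endothelial cells, against 563 and 645 CPM in the proximal tubule. Both genes thus stood higher in endothelial than in proximal tubule cells in each library. Distal nephron cells had Fos at 1328 CPM in CA3 and 1778 CPM in vehicle, but Fosb at only 463 and 472 CPM. Counted together, Fosb made up 25.9% (95% exact interval 23.7% to 28.1%) of Fos and Fosb UMIs in CA3 distal nephron cells and 21.0% (19.5% to 22.5%) in vehicle ones. In the proximal tubule its share was 50.2% (49.2% to 51.2%) in CA3 and 55.1% (54.2% to 56.0%) in vehicle. A 3′ tag counts a molecule once whatever its length, so these are shares of captured molecules.

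The Jun family differed most in its make-up. Junb held 58.5% (56.6% to 60.4%) of Jun, Junb and Jund UMIs in CA3 T or NK cells and 59.6% (57.0% to 62.1%) in vehicle ones, against 2.37% (2.18% to 2.58%) and 2.34% (2.16% to 2.52%) in the proximal tubule. Jun, the founding member of the family, held 15.8% in CA3 and 19.2% in vehicle T or NK cells, against 67.7% and 69.5% in the proximal tubule. Junb was also the largest part in mononuclear phagocytes, at 39.0% and 43.1%, and held 25.5% and 29.5% in the distal nephron. Jund, the member known to be least dependent on a stimulus, stayed between 19.2% and 31.6% in every class except B cells, where it was 42.6% in CA3 and 49.7% in vehicle. The 2 libraries gave the same leading Jun gene in each of the 8 classes.

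**Figure D2:**
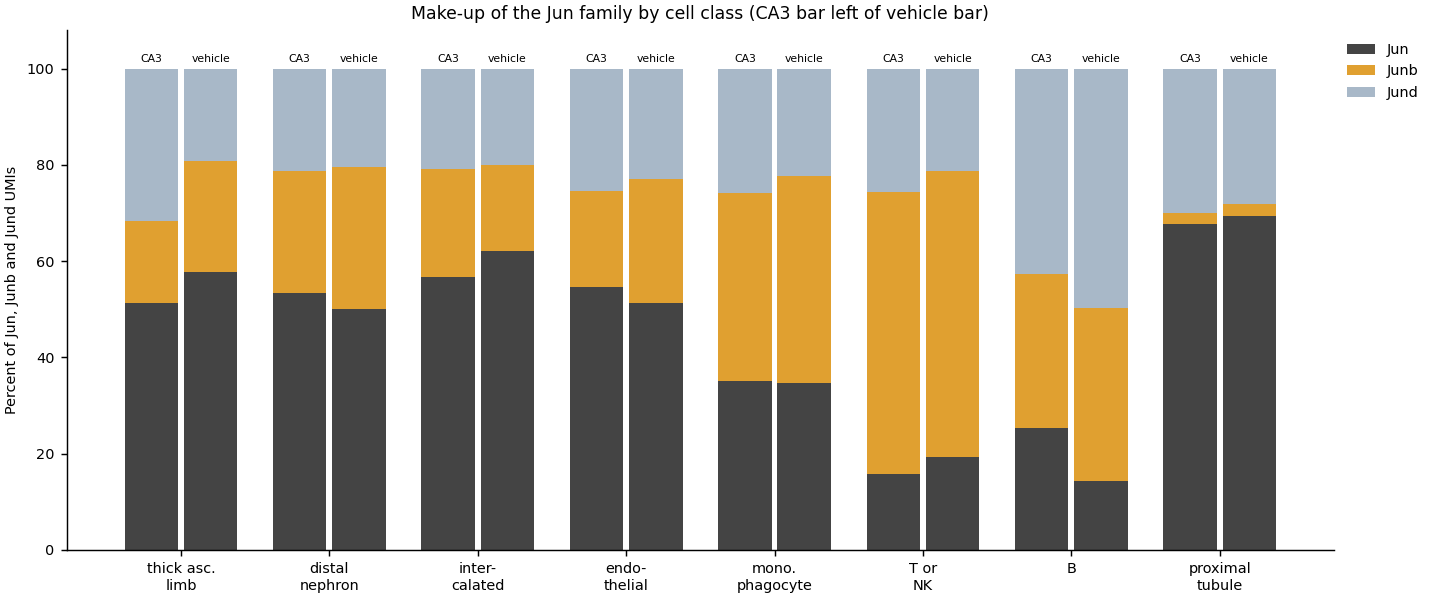
Percent of Jun, Junb and Jund UMIs taken by each gene (vertical axis, from 0) in each cell class (horizontal axis), with the CA3 bar left of the vehicle bar. Junb fills 58.5% of the CA3 and 59.6% of the vehicle T or NK bar, and Jun 67.7% and 69.5% of the proximal tubule bars.

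Set against the proximal tubule, 8 of the 10 genes were at least 2 times higher in endothelial cells in both libraries, where 20.2% of 11225 genes were. Jun and Klf6 were the others, and the count was 5 or 6 under each of the 6 alternatives run. In distal nephron cells Fos, Junb, Egr1 and Ier2 were at least 2 times higher in both libraries, 4 of 10 against 12.6% of 11082 genes, and Dusp1 at least 2 times lower. In T or NK cells Junb and Ier2 were, 2 of 10 against 14.2% of 11019 genes, a share near the background, and Atf3 was at least 2 times lower. The share of all genes at least 2 times lower is not given here, so nothing is read from the count of lower genes. Junb was the gene furthest apart, at 9.71 times the proximal tubule level in CA3 and 11.3 times in vehicle in the distal nephron, and at 42.5 and 49.3 times in T or NK cells.

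Of the remaining genes, Atf3, an ATF protein known to repress and to respond to stress, was at 828 CPM in CA3 and 616 CPM in vehicle endothelial cells and at 1107 and 922 CPM in mononuclear phagocytes, against 33.5 and 32.9 CPM in the proximal tubule. T or NK cells held 5 and 4 Atf3 UMIs in all and B cells none in either library, which allows up to 33.7 CPM in CA3 and 24.7 CPM in vehicle B cells. Egr1, a zinc finger factor induced through serum response factor, was at 1747 CPM in CA3 and 2105 CPM in vehicle endothelial cells, against 115 and 131 CPM in the proximal tubule. Ier2, a small nuclear protein, was at 451 and 635 CPM in endothelial cells, against 54.6 and 64.9 CPM. Klf6, a zinc finger factor, was highest in mononuclear phagocytes, at 1114 and 1011 CPM, and its distal nephron level was 369 CPM in CA3 and 392 CPM in vehicle, against 348 and 396 CPM in the proximal tubule. Dusp1, a phosphatase that switches off p38 and JNK kinases and so restrains AP-1, was at 91.3 CPM in CA3 and 123 CPM in vehicle distal nephron cells, against 327 and 323 CPM in the proximal tubule.

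At equal depth, with every cell thinned to 2000 UMIs, Jund and Jun were the genes found in most proximal tubule cells. The 2000 UMIs include mitochondrially encoded genes, so depth without these was not equal between classes. Their median share was 19.5% in CA3 and 18.0% in vehicle proximal tubule cells, against 4.77% and 6.04% in T or NK cells. Jund had a UMI in 41.1% (exact interval 38.3% to 44.0%) of CA3 and 36.1% (33.6% to 38.7%) of vehicle cells, and Jun in 40.2% (37.4% to 43.1%) and 36.1% (33.6% to 38.7%). Fos followed with 15.7% and 15.3%, Fosb with 15.8% and 17.3%, Klf6 with 17.5% and 16.9% and Dusp1 with 14.4% and 17.8%. Egr1 was found in 9.11% and 7.31%, Ier2 in 5.98% and 4.78%, Junb in 5.98% and 5.20% and Atf3 in 1.30% and 2.53%. In T or NK cells, Atf3 had a UMI in 1.04% of CA3 and 1.96% of vehicle cells, with exact intervals that hold the proximal tubule shares. The few proximal tubule cells with Atf3 were not spread evenly, since Malat1-rich cells, described below, held 299 of the 306 Atf3 UMIs in CA3 and 340 of the 345 in vehicle. In T or NK cells Junb was found in 85.4% (76.7% to 91.8%) of CA3 and 92.2% (81.1% to 97.8%) of vehicle cells, and in endothelial cells Fos in 59.6% and 67.6%. Without thinning the proximal tubule shares were 63.2% and 56.1% for Jun and 26.5% and 23.4% for Fos. The higher CA3 shares of Jun, Egr1, Ier2 and Klf6 go against their CPM, which was lower in CA3, so no order between the libraries is read from them. In Malat1-rich cells their CA3 over vehicle ratios of CPM were 0.923, 0.782, 0.752 and 0.844. In Malat1-poor cells they were 1.41, 1.82, 1.54 and 1.15 (0.918 to 1.44 for Klf6). The part of each group of cells in the shares was not tested.

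The proximal tubule level was an average over unlike cells. Its cells fell into a group rich in Malat1, a long noncoding RNA that stays in the nucleus, and a group with hardly any, and the 10 genes were found almost wholly in the first. The split was drawn at 10000 CPM of Malat1 after seeing the data. It put 415 of 1153 CA3 cells and 521 of 1423 vehicle cells in the Malat1-rich group, with a median of 158267 and 165967 CPM of Malat1, and left the others at a median of 836 and 666 CPM. Only 7 CA3 and 35 vehicle cells lay between 5000 and 20000 CPM. The summed level of the 10 genes was 7993 CPM in Malat1-rich and 533 CPM in Malat1-poor cells of CA3, and 8609 CPM in Malat1-rich and 406 CPM in Malat1-poor cells of vehicle.

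**Figure D3:**
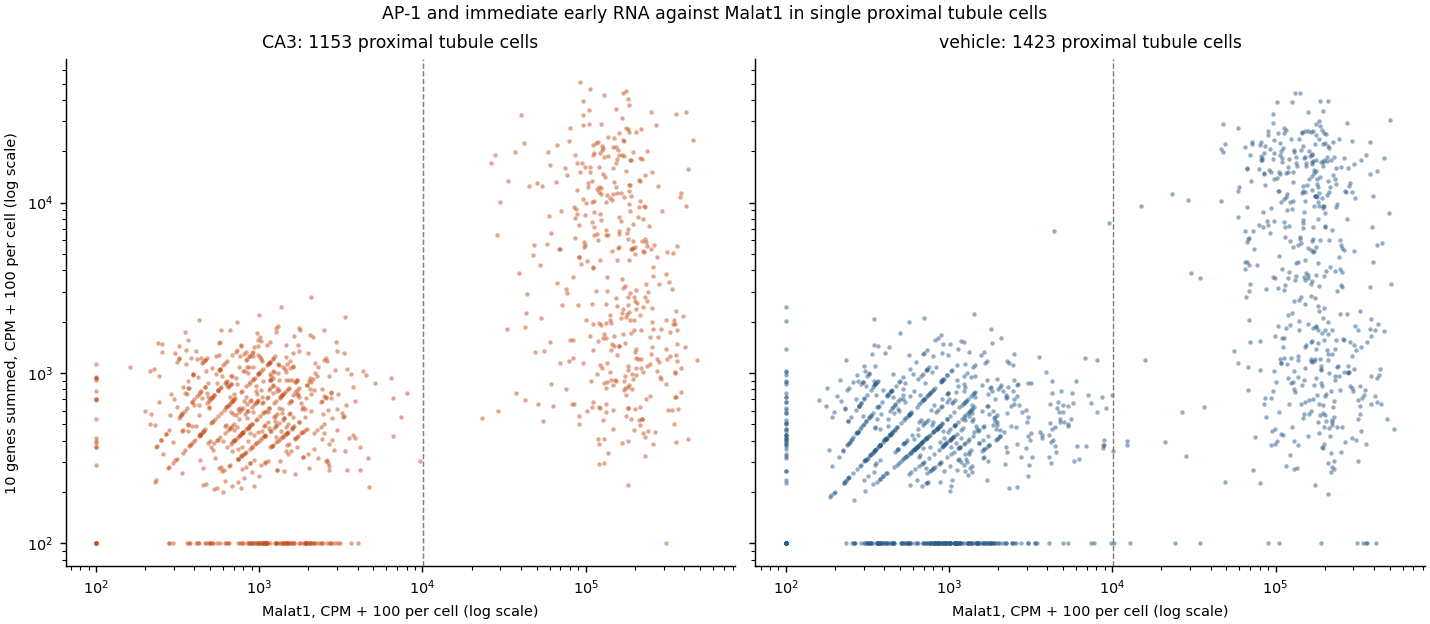
Each point is 1 proximal tubule cell, with Malat1 (horizontal) and the 10 genes summed (vertical), both in CPM plus 100 on log axes, CA3 left and vehicle right; the dashed line is the split at 10000 CPM of Malat1. Cells right of the line reach above 20000 CPM of the 10 genes in both libraries, and cells left of it stay at a median of 454 CPM in CA3 and 311 CPM in vehicle.

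All 10 genes were at least 2 times higher in Malat1-rich than in Malat1-poor proximal tubule cells in both libraries, where 17.7% of 10621 genes were. Fosb differed most, with 1032 CPM in Malat1-rich against 5.76 CPM in Malat1-poor cells of CA3 and 1216 against 6.06 CPM in vehicle, 179 times (120 to 280.0) and 201 times (140 to 298). Fos differed 44.3 times in CA3 and 48.9 times in vehicle, Jun 17.9 and 27.3 times and Klf6 16.2 and 22.0 times. Dusp1 was at 590 CPM in Malat1-rich against 14.9 CPM in Malat1-poor cells of CA3 and at 595 against 19.8 CPM in vehicle. Jund, at 6.38 and 7.93 times, Junb, at 3.97 and 9.17 times, Egr1, at 4.63 and 10.8 times, and Ier2, at 4.27 and 8.77 times, differed less. The Malat1-poor levels of Fos, Fosb, Atf3 and Dusp1 were at most 22.8 CPM in either library, and how much of them was free RNA was not tested.

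Quality measures moved with the same split. Malat1-rich proximal tubule cells had a median of 12629 UMIs in CA3 and 11120 in vehicle, against 6030.5 and 5772 in Malat1-poor cells, and a median mitochondrial share of 12.5% and 11.9%, against 24.0% and 21.9%. The gap was also present where depth was alike. Among cells with 10000 to 15000 UMIs the 10 genes were at 6547 CPM in Malat1-rich and 514 CPM in Malat1-poor cells of CA3, and at 9344 and 386 CPM in vehicle. Among cells with 5% to 10% mitochondrial UMIs they were at 10089 and 654 CPM in CA3 and at 8520 and 452 CPM in vehicle. The 10 abundant proximal tubule transcripts were at 38997 CPM in Malat1-rich and 43457 CPM in Malat1-poor cells of CA3 and at 36640 and 42551 CPM in vehicle, and both groups carried them. Whether RNA left the Malat1-poor barcodes was not tested. The same split was present in the distal nephron, where the 10 genes were at 5978 CPM in Malat1-rich and 588 CPM in Malat1-poor cells of CA3 and at 7159 and 499 CPM in vehicle.

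Restricting the comparison of classes to Malat1-rich cells changed it. In the distal nephron Junb and Egr1 remained at least 2 times above the proximal tubule in both libraries, 2 of 10 against 11.9% of 10593 genes, and Jun, Jund and Dusp1 were at least 2 times lower. In endothelial cells Fos, Junb, Atf3, Egr1 and Ier2 were higher, 5 of 10 against 18.1% of 10744 genes. All 10 genes together summed to 16719 CPM in endothelial against 7993 CPM in proximal tubule cells of CA3 and 17178 against 8609 CPM in vehicle. In the distal nephron they summed to 5978 CPM in CA3 and 7159 CPM in vehicle. That was below the proximal tubule in both libraries, the reverse of the order over all cells. In T or NK cells Junb and Ier2 were higher, 2 of 10 against 13.3% of 10449 genes, and Fosb, Jun and Atf3 at least 2 times lower. These shares are of genes that were higher. No share of lower genes is given beside the lower ones, and nothing is read from their count. Junb was still at 2586 CPM in T or NK cells against 93.2 CPM in the proximal tubule of CA3 and at 3156 against 106 CPM in vehicle.

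Along the proximal tubule, the 10 genes were higher in Malat1-rich cells of S2-like than of S1-like clusters, S1 being the first, convoluted part of the tubule and S2 the part that follows. Segment names rest on marker lists and on a minimum score set after seeing the data. The larger Malat1-rich S2-like cluster scored 1.48 on the S2 list and 1.09 on the S1 list, so its name is not firm. The genes summed to 11606 CPM in 229 S2-like and 3068 CPM in 184 S1-like cells of CA3, and to 12038 CPM in 299 S2-like and 3334 CPM in 217 S1-like cells of vehicle. All 10 were at least 2 times higher in S2-like cells in both libraries, where 3.03% of 9965 genes were. Fos was at 1575 CPM in S2-like against 242 CPM in S1-like cells of CA3 and 1406 against 252 CPM in vehicle, 6.51 and 5.58 times, and Atf3 differed 2.98 times in CA3 and 7.41 times in vehicle. At equal depth Fos had a UMI in 50.7% of S2-like against 19.0% of S1-like cells of CA3, and in 49.5% against 18.4% in vehicle. The S3-like cluster held 11 CA3 and 34 vehicle cells, too few to place, at 2309 and 3613 CPM summed and with 18.2% and 11.8% of its cells Malat1-rich.

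Much of the S2-like level came from 1 cluster of 67 CA3 and 84 vehicle cells, which was 5.81% and 5.90% of proximal tubule cells and held 40.4% and 41.0% of their UMIs of the 10 genes, at 20490 and 20610 CPM. Although the 10 genes were left out of the clustering, genes that vary with them were not, so its high level is a description. The cluster was named S2-like by its markers but had more Kap, an androgen-regulated gene of the straight proximal tubule, at 1142 CPM against 39.1 CPM in the other Malat1-rich S2-like cells of CA3 and 1627 against 147 CPM in vehicle. It had less Slc5a2, the glucose cotransporter of the early proximal tubule, at 14.5 against 312 CPM in CA3 and 28.3 against 241 CPM in vehicle. Napsa was also higher, at 1394 against 376 CPM in CA3 and 1098 against 412 CPM in vehicle. So was Slc22a13, at 65.4 against 4.95 CPM in CA3 and 62.7 against 13.9 CPM in vehicle. Kap, Napsa and Slc22a13 were among the 10 leading genes of the S3-like cluster. The cluster scored 1.43 on the S2 list and 0.362 on the S3 list, so its name is not firm. Kap, Slc5a2, Napsa and Slc22a13 were picked after their values were seen. Without this cluster S2-like cells carried 7973 CPM against 3068 CPM in S1-like cells of CA3 and 8349 against 3334 CPM in vehicle. Fos, Fosb, Jun, Jund and Klf6 then remained at least 2 times higher in both libraries, 5 of 10 against 1.99% of 9653 genes. Atf3 was then lower than in S1-like cells of CA3, at 15.4 against 28.3 CPM, but higher in vehicle, at 31.8 against 11.6 CPM.

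**Figure D4:**
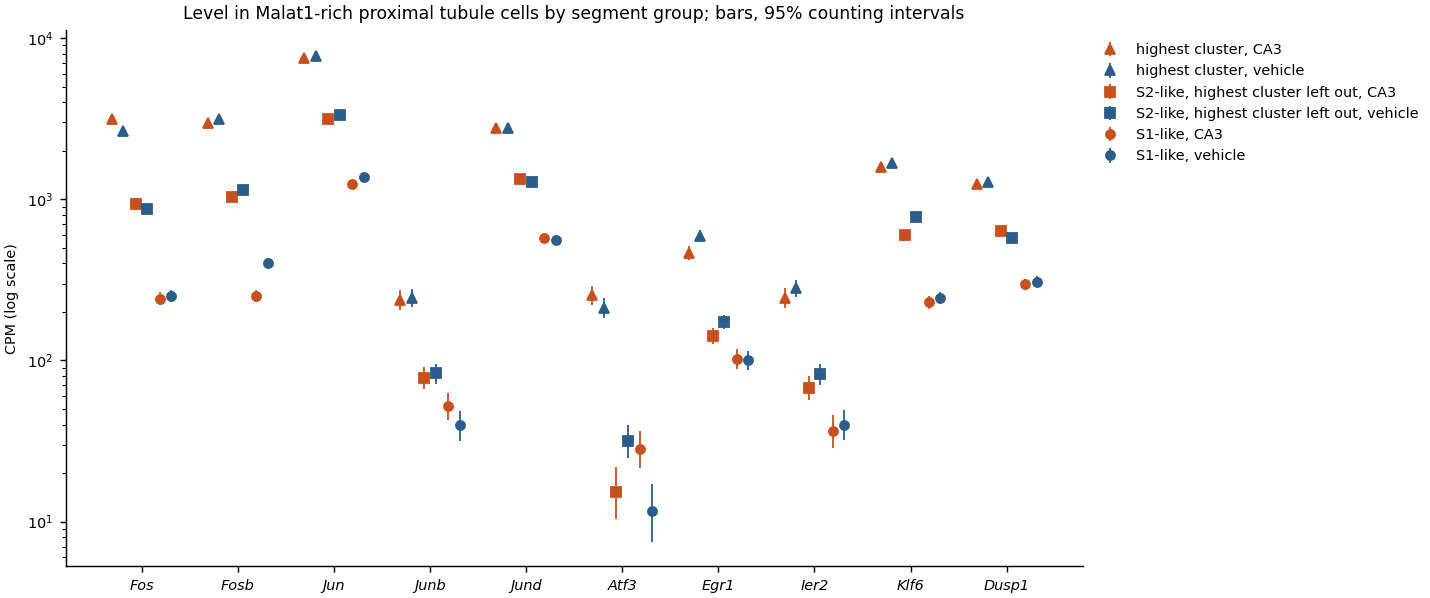
CPM of each gene (vertical log axis) in Malat1-rich proximal tubule cells of the cluster with the highest level (triangles), of the other S2-like clusters (squares) and of S1-like clusters (circles), CA3 points left of vehicle points, with 95% counting intervals. Jun stands at 7559 CPM in CA3 and 7724 CPM in vehicle in the triangles, 3137 and 3342 CPM in the squares and 1252 and 1379 CPM in the circles.

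Malat1-rich cells were also split by Slc5a2 itself, a marker behind the S1-like name, chosen after seeing the data. The highest cluster had little Slc5a2, so most of its cells fall among those with no Slc5a2 UMI. The split is therefore a description and no independent check of the segment order. Cells with no Slc5a2 UMI at equal depth carried 10833 CPM of the 10 genes in CA3 and 11415 CPM in vehicle. Cells with 1 UMI carried 7031 and 6806 CPM, and cells with 2 or more 3611 and 4281 CPM. The median mitochondrial share stayed between 10.7% and 13.1% over these 6 sets of cells.

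Levels varied widely from cell to cell. Among Malat1-rich proximal tubule cells the summed level was 1087 CPM at the lower quartile, 3328 CPM at the median and 11287 CPM at the upper quartile in CA3, and 865, 3769 and 13707 CPM in vehicle. The top 42 of 415 CA3 cells held 42.2% of the UMIs, and the top 53 of 521 vehicle cells 42.3%. At least 5 of the 10 genes were found in 65.3% of CA3 and 61.0% of vehicle cells.

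The genes varied together within the Malat1-rich cells. All 45 pairs of them had a Pearson correlation of log values above 0 in both libraries, with a median of 0.39 in CA3 (415 cells) and 0.44 in vehicle (521 cells). Cells of a library share its preparation and differ in depth, so these values are descriptions and have no p. Jun with Jund was highest, at 0.83 in CA3 and 0.85 in vehicle, followed by Fosb with Jun, at 0.79 and 0.80. Egr1 with Dusp1 was lowest in CA3, at 0.17. Over all proximal tubule cells, 1153 and 1423, the genes outside the group most like its mean were Rhob, Cyr61, Chka, Neat1, Pdk4, Btg2, Dnajb4, Clk1, Txnip and Malat1, out of 8183. Rhob, a small GTPase, had a correlation of 0.72 in CA3 and 0.74 in vehicle, and Malat1 0.62 in each. Within Malat1-rich cells Hsp90aa1, the inducible HSP90 chaperone, was among the 10 most like genes, at 0.73 in CA3 and 0.75 in vehicle. Rhob, Cyr61, Pdk4 and Btg2 were in both sets of 10.

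CA3 and vehicle proximal tubule cells carried close levels of the 10 genes. Summed they were at 4584 CPM in CA3 and 4738 CPM in vehicle, a ratio of 0.968 (95% counting interval 0.955 to 0.980). None of the 10 was at least 1.5 times higher or lower, where 7.23% of 11683 genes were. Single ratios ran from 0.840 for Ier2 (0.747 to 0.945) to 1.06 for Fos, with Fosb at 0.873, Klf6 and Egr1 at 0.878, Jun at 0.963, Dusp1 at 1.01, Atf3 at 1.02 and Jund at 1.05. Junb was at 61.4 CPM in CA3 and 61.2 CPM in vehicle, with an interval of the ratio from 0.893 to 1.12. The median log2 ratio was -0.03 over the 10 genes and 0.01 over all genes.

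Within Malat1-rich proximal tubule cells the sum was 7993 CPM in CA3 and 8609 CPM in vehicle, a ratio of 0.928 (0.916 to 0.941). None of the 10 reached 1.5 times, where 7.63% of 11130 genes did, and Ier2 was lowest, at 84.0 CPM in CA3 and 112 CPM in vehicle, a ratio of 0.752. By segment the sum had a ratio of 0.920 (0.890 to 0.952) in S1-like and 0.964 (0.950 to 0.978) in S2-like cells. Single genes departed from it in both directions. Junb had a ratio of 1.32 (0.988 to 1.78) in S1-like cells. In S2-like cells Fos was at 1.12 (1.07 to 1.17) and Egr1 at 0.786 (0.712 to 0.868). Fosb and Atf3 lay furthest from the sum in S1-like cells. Fosb was at 251 CPM in CA3 and 402 CPM in vehicle S1-like cells, a ratio of 0.624 (0.559 to 0.696), and had a ratio of 0.908 in S2-like cells. Atf3 was at 28.3 CPM in CA3 and 11.6 CPM in vehicle S1-like cells, a ratio of 2.44, from 59 UMIs in CA3 and 25 in vehicle, of which 3 cells held 94.9% and 88%. In S2-like cells without the highest cluster the Atf3 ratio was 0.484 (0.307 to 0.746), from 31 and 73 UMIs, and the differences between segments were not tested. In Malat1-poor cells the sum was 533 CPM in CA3 and 406 CPM in vehicle. Junb, Egr1 and Ier2 were the genes past 1.5 times, all higher in CA3, 3 of 9 measured genes against 8.86% of 10244 past it in either direction. Junb was at 23.5 CPM in CA3 and 11.5 CPM in vehicle, Egr1 at 38.6 and 21.2 CPM and Ier2 at 19.7 and 12.7 CPM. Cells rich in Junb were more numerous in CA3, with 96 T or NK cells and 1582 Junb UMIs in CA3 against 51 cells and 840 UMIs in vehicle, and their part in these low values was not tested. Mononuclear phagocyte markers, too, were higher in the CA3 proximal tubule class, with 12 of 13 found in each library and a sum of 116 CPM in CA3 and 66.0 CPM in vehicle.

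In the distal nephron, 68 CA3 and 83 vehicle cells, the 10 genes summed to 5366 CPM in CA3 and 6416 CPM in vehicle, a ratio of 0.836 (0.806 to 0.867). Atf3, Egr1 and Ier2 were the genes past 1.5 times, all lower in CA3, 3 of 10 against 17.6% of 9097 genes past it in either direction. Atf3 was at 42.1 CPM in CA3 and 115 CPM in vehicle, a ratio of 0.365 (0.246 to 0.529), Egr1 at 607 and 990 CPM, a ratio of 0.614 (0.553 to 0.681), and Ier2 at 125 and 200.2 CPM, a ratio of 0.626 (0.494 to 0.788). These levels rested on few cells, since a single vehicle cell held 42 of the 143 Atf3 UMIs, and 3 cells held 52.0% of the CA3 and 38.7% of the vehicle UMIs of Egr1. With each cell thinned to 2000 UMIs the ratios were 0.872 for Atf3, 0.896 for Egr1 and 0.814 for Ier2, none of them at 1.5 times. Fosb, at 1.94, and Dusp1, at 0.658, were then past 1.5 times instead, in opposite directions, and the summed ratio was 1.04. Thick ascending limb markers in this class were at 3589 CPM in CA3 and 6034 CPM in vehicle, 8 of 8 found in each, and principal cell markers at 5682 and 7395 CPM, also 8 of 8, and their part in the difference was not tested.

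In endothelial cells the sum was 15929 CPM in CA3 and 16809 CPM in vehicle, a ratio of 0.948 (0.923 to 0.973). Klf6 was the gene past 1.5 times, 1 of 10 against 24.5% of 9265 genes past it in either direction. Klf6 was lower in CA3, at 469 CPM in CA3 and 799 CPM in vehicle, a ratio of 0.587 (0.506 to 0.680). A single cell held 3034 of the 7906 CA3 UMIs of the 10 genes, and another 3521 of the 17919 vehicle UMIs. When the 3 highest cells per library were dropped, the Klf6 ratio was 0.400, the summed ratio was 0.872 and 4 of the 10 genes were past 1.5 times. Atf3 then had a ratio of 0.305, against 1.34 with all cells. Thick ascending limb markers were at 5023 CPM in CA3 and 3040 CPM in vehicle, 8 of 8 found in each, and fibroblast, pericyte or smooth muscle markers at 183 and 646 CPM, 8 and 10 of 11. Their part in the Klf6 difference was not tested.

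In T or NK cells, 96 in CA3 and 51 in vehicle, the sum was 7734 CPM in CA3 and 7966 CPM in vehicle, a ratio of 0.971 (0.923 to 1.02). Egr1, which in T cells follows antigen receptor signalling, was at 249 CPM in CA3 and 93.3 CPM in vehicle, a ratio of 2.67 (1.75 to 4.21), and was the gene past 1.5 times, 1 of 9 measured against 25.7% of 5672 genes. It rested on 151 UMIs in CA3 and 26 in vehicle, of which 3 cells held 58.9% and 53.8%. Without those cells the ratio was 2.31. The share of cells with an Egr1 UMI at equal depth was 15.6% (9.02% to 24.5%) in CA3 and 11.8% (4.44% to 23.9%) in vehicle, and these intervals overlap almost wholly. Mononuclear phagocyte markers were at 867 CPM in CA3 and 607 CPM in vehicle T or NK cells, 9 and 8 of 13 found, and erythroid markers at 24.7 and 9628 CPM, 4 and 5 of 6. Their part in the Egr1 difference was not tested.

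**Figure D5:**
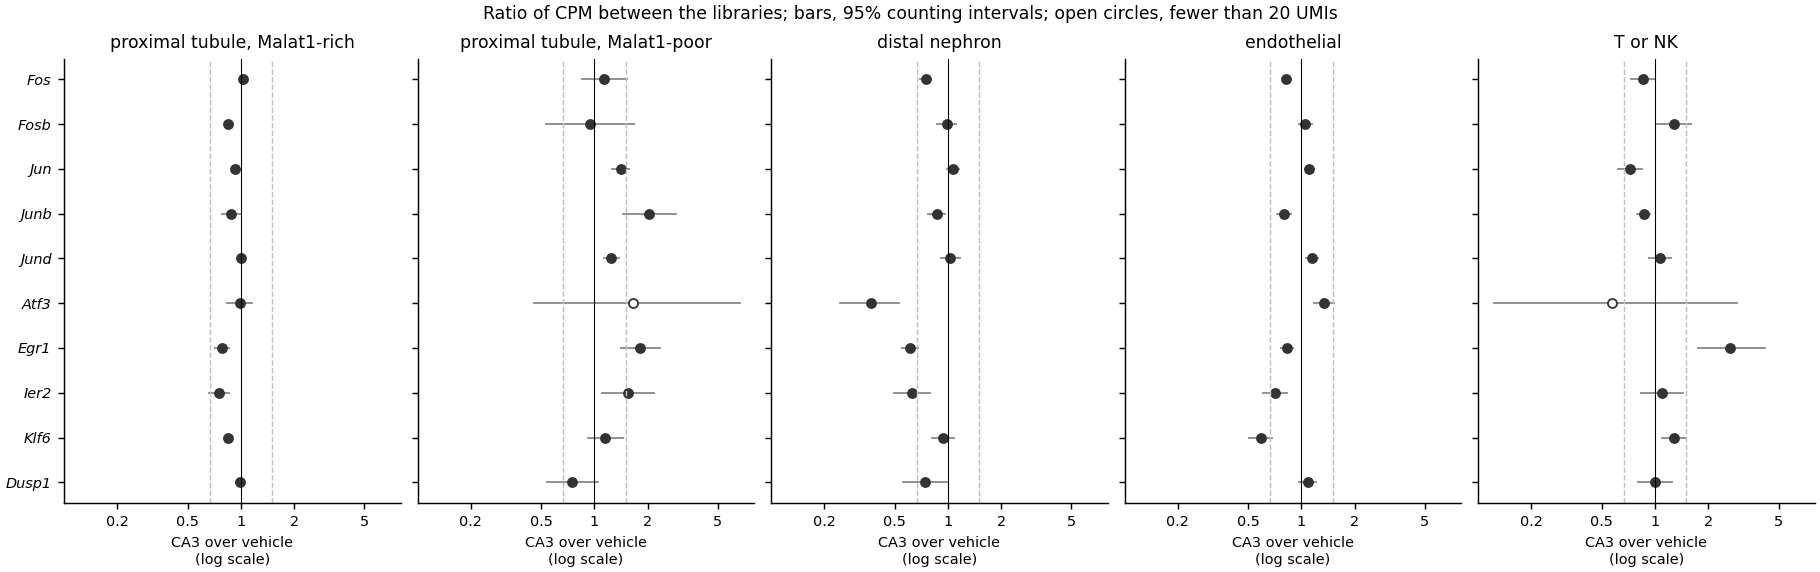
Ratio of CPM, CA3 over vehicle (horizontal log axis), for each gene (rows) in 5 sets of cells, with 95% counting intervals; dashed lines mark 1.5 times in either direction and open circles fewer than 20 UMIs. All 10 genes lie between the dashed lines in Malat1-rich proximal tubule cells, Atf3, Egr1 and Ier2 lie left of them in the distal nephron, and Egr1 lies right of them in T or NK cells at 2.67.

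In the thick ascending limb, under 50 cells in CA3, the values are given side by side and no comparison is made. Fos was at 425 CPM in CA3 and 1442 CPM in vehicle, Fosb at 178 and 656 CPM, Jun at 768 and 1360 CPM, and Jund at 473 and 452 CPM. Among Malat1-rich cells of this class, 24 in CA3 and 36 in vehicle, the median cell carried 3937 CPM of the 10 genes in CA3 and 3769 CPM in vehicle, while the cell at the 95th percentile carried 11463 and 23154 CPM. The class sums thus differed more than the median cells did.

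Other genes of the pathway, in 6 lists, mostly lay close between CA3 and vehicle in the proximal tubule. The lists were chosen with earlier results of these data known, and a gene was measured where the libraries summed to at least 20 UMIs. Of 16 measured AP-1 partner genes 15 lay within 1.5 times, with Ddit3, a stress-induced C/EBP relative, at a ratio of 1.36, Atf2, a partner of Jun, at 0.752 and Atf7 at 1.20, and Maff, a small Maf protein, was at 0.658 CPM in CA3 and 2.77 CPM in vehicle, a ratio of 0.238 (0.0807 to 0.583) from 6 and 29 UMIs. Of 31 other immediate early genes 29 lay within 1.5 times, with Cebpd, a C/EBP factor, at 4.93 CPM in CA3 and 12.5 CPM in vehicle and Plk2, a polo-like kinase, at 6.69 and 10.7 CPM. Ier5 had a ratio of 0.706 and Sik1, a salt-inducible kinase, of 1.31. Of 12 measured phosphatases and feedback inhibitors of MAP kinases, Dusp2 was past 1.5 times, at 1.53 CPM in CA3 and 0.954 CPM in vehicle. It rested on 14 and 10 UMIs, with an interval of the ratio from 0.665 to 4.05, so no direction is read from it. Spry1 was lower, at 3.29 and 5.44 CPM, while Dusp5 had a ratio of 0.689 and Dusp4 of 1.43. Of 24 upstream kinases and serum response factor genes, Mapk13, a p38 kinase, was lower, at 4.27 CPM in CA3 and 6.68 CPM in vehicle, and Elk1, a partner of serum response factor, had a ratio of 1.33. The genes past 1.5 times in these 4 lists had at most 131 UMIs in a library, and 7.23% of all genes were past it.

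Textbook AP-1 targets and heat shock chaperones made up the other lists. Gstp1, a glutathione transferase, was at 96.4 CPM in CA3 and 30.4 CPM in vehicle, a ratio of 3.17 (2.79 to 3.61), and is uncertain because the near-identical Gstp2 can share its reads. Plau, the urokinase protease, was lower, at 38.2 CPM in CA3 and 72.4 CPM in vehicle, a ratio of 0.528 (0.464 to 0.601), and Fn1, fibronectin, was lower from 7 UMIs in CA3 and 18 in vehicle. The other 8 of the 11 measured targets lay within 1.5 times. Of 14 chaperones 12 lay within 1.5 times, with Hspa1b, an inducible HSP70, at 47.6 CPM in CA3 and 90.3 CPM in vehicle, a ratio of 0.527 (0.469 to 0.591), and Hspb1, a small chaperone, at 9.10 and 5.82 CPM. Hspa1a, whose transcript is nearly identical to that of Hspa1b, was at 102 and 144 CPM, and Hsp90aa1 at 946 and 1153 CPM.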

How the data were processed

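The samples were total kidney cells of 2 libraries, 1 per group, so groups were compared as 2 libraries without a test. Per the submitters' processing notes, reads were processed with Cell Ranger 3.0.1 against mm10, and the deposited values are UMI counts per gene and barcode, not normalized. Barcodes under 500 genes or over 50% mitochondrial UMIs were dropped, 230 in CA3 and 200 in vehicle. Scrublet marked 2 CA3 and 1 vehicle barcodes, so doublets may remain. Cells were clustered with scanpy 1.11.5 (2000 variable genes, 30 components, Leiden resolution 1) without the 10 genes and the list genes, 147 in all, and classes were named from marker lists.

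Counts were summed per class and divided by the UMIs of genes not encoded in mitochondria. Ratios carry exact conditional binomial 95% intervals and shares exact Clopper-Pearson intervals after thinning to 2000 UMIs of all genes, from scipy 1.17.1. Both cover counting error only. A gene with 0 UMIs was given the limit that 3 UMIs set. A ratio was given a call only with 20 UMIs over both groups. The calculations were checked on simulated data.

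The 10 genes and all lists were chosen with earlier results of these data known. Genes named beyond the 10 were, per list, up to 4 with the largest proximal tubule ratio in either direction, and the 10 genes most correlated with the mean of the 10 genes among those found in at least 5% of cells, 1 of which is not reported here. The Malat1 split, the minimum segment score of 0.25, the Slc5a2 split, and Kap, Slc5a2, Napsa and Slc22a13 as named genes, were chosen after seeing the data. Alternatives changed the cell filter, clustering, denominator, thinning and cells used.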

Additional observations from a re-analysis of the deposited data

Results flagged for a closer look

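Egr1 differed between CA3 and vehicle in opposite directions in 2 cell classes. It was lower in CA3 in the distal nephron, at 607 CPM in CA3 and 990 CPM in vehicle, a ratio of 0.614, and higher in CA3 in T or NK cells, at 249 CPM in CA3 and 93.3 CPM in vehicle, a ratio of 2.67. With 1 library per group the difference between the classes was not tested. The distal nephron ratio ranged from 0.491 to 0.896 over 8 alternatives and the T or NK ratio from 2.31 to 3.13 over 10.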

How the results depend on the processing

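No paired analysis was possible because each group is 1 library and no result comes from a test. No CA3 over vehicle ratio of a class past 1.5 times changed direction. Between segments Atf3 in CA3 did. It was 2.98 times the S1-like level in S2-like Malat1-rich cells, and 0.542 times (0.339 to 0.851) without the highest cluster. The summed CA3 over vehicle ratio in the proximal tubule was 0.953 without the 3 highest cells per library, 0.928 in Malat1-rich cells, 1.01 when cells under 1000 genes or over 25% mitochondrial UMIs were dropped, and 0.992 after thinning, where 1 gene, Atf3, passed 1.5 times at 0.591. In the distal nephron it was 0.789 with no cell filter and 1.04 after thinning, with Fosb at 1.94 and Dusp1 at 0.658. There the count of genes at least 2 times above the proximal tubule was 2 without the 3 highest cells and 2 in Malat1-rich cells.

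In endothelial cells the summed ratio was 0.872 without the 3 highest cells, 0.973 in Malat1-rich cells, 0.864 when clustering used all variable genes, 0.620 when each library was clustered on its own, 0.836 at Leiden resolution 0.5 and 0.722 after thinning. The genes past 1.5 times were 4 without the 3 highest cells, 4 with all variable genes, 6 with separate clustering and 4 after thinning, and those at least 2 times above the proximal tubule were 5 in Malat1-rich cells, 5 with separate clustering and 5 at resolution 0.5. In T or NK cells the summed ratio was 0.916 in Malat1-rich cells, 1.09 with separate clustering and 1.09 after thinning, and 2 genes passed 1.5 times without the 3 highest cells, with no minimum beyond 1 UMI, and with separate clustering. The S2-like over S1-like ratio was 2.60 in CA3 and 2.50 in vehicle without the highest cluster. By Slc5a2 UMIs, a split not independent of the segment names, the level at 0 over that at 2 or more was 3.0 in CA3 and 2.67 in vehicle. The causes were not tested. Of 360 single gene ratios under alternatives 286 stayed within the main interval. Classes under 50 cells in a library gave no value under an alternative, except among Malat1-rich cells alone. There 48 CA3 distal nephron and 47 CA3 endothelial cells were used. The few cells outside the proximal tubule limit every ratio there, and 1 library per group leaves the spread between animals unknown.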
